A study of Mus musculus with 3 samples.

Results

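The Ly6 family consists of small proteins of the cell surface, most of them held to the membrane by a glycosylphosphatidylinositol (GPI) anchor. Several serve as the antigens by which mouse blood cells are sorted: Ly-6C, made from *Ly6c1* and *Ly6c2*, on monocytes, Ly-6G on neutrophils, and Sca-1, the product of *Ly6a*, on stem cells, T cells and stromal cells. *Ly6d* encodes ThB, an antigen of the B lineage and of keratinocytes, and *Ly6e* encodes TSA-1, also called Sca-2, which many cell types carry. Interferons raise several members, and the genes are so alike in sequence that reads of neighbouring copies can be hard to keep apart. The 7 members described here, *Ly6a*, *Ly6c1*, *Ly6c2*, *Ly6d*, *Ly6e*, *Ly6g* and *Ly6i*, were taken by symbol from the 31053 genes counted, and all 7 were found.

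Members were read in 3 single-cell libraries. In the first (hSTSG), human split-thickness skin lay under the skin of C57/BL6 mice until day 14, and the cells of 5 mice were pooled. For the other 2, bone marrow cells of C57/BL6 mice were grown with GM-CSF for 7 days and then left untreated (Co-Mac) or given 1 µM 1,25-dihydroxycholecalciferol (VD3) for 24 hours (VD-Mac). The number of mice behind the cultures is not given in the sources used here. Only mouse genes were counted, so genes of the human skin itself have no counts of their own. Whether any human reads were counted under mouse genes was not tested. Each group is 1 library, so no replicate check was possible and nothing was tested. Every interval below is a 95% interval for counting error only.

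After filtering, 2144 of 2644 barcodes were kept in hSTSG, 7257 of 7866 in Co-Mac and 8825 of 9794 in VD-Mac, with median depths of 6637.5, 15804 and 12089 UMIs. Before filtering, few barcodes occurred in more than 1 library: 19 in both cultures, 7 in Co-Mac and hSTSG, and 7 in VD-Mac and hSTSG. Among kept cells the counts were 15, 3 and 6. Cell types were given to clusters from marker genes other than the family, and the names carry "-like" for that reason. The graft library held fibroblast-like and endothelial-like cells as well as myeloid and T cell-like cells. The libraries labelled as macrophages were mixed. Dendritic cell (DC)-like cells made up 2638 of the kept Co-Mac cells and 2985 of the kept VD-Mac cells, beside macrophage-like, granulocyte-like, neutrophil precursor-like and monocyte-like cells. The summed level of 13 macrophage markers was 6563 CPM (UMIs of a gene scaled to the total of the cells summed) in Co-Mac and 8534 in VD-Mac, with *Lgals3* the most abundant. The summed level of 10 DC markers was 5443 and 3907 CPM, led by *Ccl17*. These sums follow their most abundant gene. Of 12 macrophage markers with 10 CPM in either culture, *Cd68*, *Mrc1* and *Apoe* were lower in VD-Mac by 2-fold or more and *Trem2* higher. Of 8 DC markers *Ccl17* was lower (3078 and 1358 CPM) and *Il4i1* higher, with a median log2 ratio of 0.33. Set beside these, 4.63% of all genes were lower and 2.16% higher. The 6 keratinocyte markers summed to 3.36 and 3.54 CPM, most of it *Krt10*, and *Krt5*, *Krt14* and *Krt15* had no UMI in either culture. Most culture clusters came almost wholly from 1 library, and such a cluster may be that library and not a cell type.

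In the graft, *Ly6a* was a gene of fibroblast-like cells. Their level was 1195 CPM (1159 to 1231), and 145 cells held 66.1% of the *Ly6a* UMIs of the library. T cell-like cells marked by *Il17a* came next at 534 CPM (482 to 591), followed by T cell-like cells marked by *Gzma* at 409 CPM (373 to 447). Endothelial-like cells, at 394 CPM (345 to 449), could not be told apart from the latter. Myeloid clusters lay far below. Macrophage-like cells marked by *Cd163* had 73.2 CPM and monocyte-like cells 72.3 CPM, and these too could not be told apart. Granulocyte-like cells closed the order at 20.9 CPM. They were not separated from a small cluster without a type name, led by *Ngp*, at 31.9 CPM (log2 ratio 0.61, −0.57 to 1.69). To compare shares of cells, every cell was thinned to 2000 UMIs and cells below that depth were left out. *Ly6a* was then found in 104 of 141 fibroblast-like cells (73.8%, 65.7 to 80.8), with 4 cells left out, against 91.0% before thinning. Granulocyte-like cells served as the low end, with 8 of 318 cells (2.52%), 158 left out, and 3.36% before thinning. Median depths of the 2 clusters were 24700 and 2261.5 UMIs.

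*Ly6c1* was confined to stromal cells of the graft. Endothelial-like cells had 847 CPM (774 to 926) and fibroblast-like cells 655 CPM (629 to 681), a log2 ratio of 0.37 (0.23 to 0.51). Because there were only 25 endothelial-like cells, fibroblast-like cells nevertheless held 82.4% of the 2906 UMIs. No other cluster in the order passed 2.62 CPM. At equal depth, *Ly6c1* was found in 61.0% of fibroblast-like cells (52.4 to 69.1; 78.6% before thinning) and in 15 of 25 endothelial-like cells (84% before thinning). Among 312 monocyte-like cells none had a thinned *Ly6c1* UMI (interval up to 1.18%), and none had 1 before thinning.

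*Ly6c2*, its closest relative, had its highest level in a myeloid cluster but was not confined to myeloid cells. A small cluster of 40 cells without a type name, led by the granule genes *Ngp* (24202 CPM), *Camp* (8716 CPM) and *Ltf* (7494 CPM), stood highest at 914 CPM (816 to 1021). Monocyte-like cells followed at 166 CPM (152 to 181) and held the largest part of the *Ly6c2* UMIs, 38.7%. This cluster is led by the haemoglobin gene *Hbb-bs* (3235 CPM) and scored higher for erythroid markers, of which too few were found for a name, so its monocyte name is the weaker match. *Hbb-bs* was not particular to it, with 3726 CPM in granulocyte-like cells. Of the monocyte markers, *Plac8* (1202.5 CPM) and *Ms4a4c* (180 CPM) were highest in this cluster of the graft. The others were higher in another graft cluster. Between the granule gene cluster and monocyte-like cells the log2 ratio was 2.46 (2.26 to 2.67). T cell-like cells marked by *Gzma* reached 157 CPM (135 to 181), carried by 184 UMIs in 28 of their cells, and were not separated from monocyte-like cells. Granulocyte-like cells had 81.2 CPM (65.5 to 99.4). In fibroblast-like cells 4 UMIs were counted, and in endothelial-like cells 0, where 3 counts would be 5.21 CPM. After thinning, 28 of 39 cells of the granule gene cluster had *Ly6c2* (71.8%, 55.1 to 85.0; 90% before), compared with 14.1% of monocyte-like cells (10.4 to 18.5; 25.5% before). The thinned share in fibroblast-like cells was 0.709%, or 1 of 141.

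*Ly6g* narrowed the pattern further to cells of the granulocyte series. The granule gene cluster had 543 CPM (468 to 626), and its 40 cells held 187 of the 237 *Ly6g* UMIs. Granulocyte-like cells came after it with 38.4 CPM (27.9 to 51.5), a log2 ratio of 3.82 (3.34 to 4.33) between them. Outside these clusters only stray counts were seen, the largest being 4 UMIs in a *Gzma* T cell-like cell. The neutrophil receptor gene *Cxcr2* was found in 53 of the 57 cells with *Ly6g*, and *Ngp* in 32 of them. At equal depth 19 of 39 cells of the granule gene cluster had *Ly6g* (48.7%, 32.4 to 65.2; 85% before thinning) and 0 of 141 fibroblast-like cells.

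*Ly6i* was shared by monocyte-like cells, at 55.5 CPM (47.6 to 64.4), and granulocyte-like cells, at 52.4 CPM (40.0 to 67.4). The 2 could not be ranked, with a log2 ratio of 0.08 (−0.35 to 0.53). Macrophage-like cells marked by *Mmp12* had 16.6 CPM (13.1 to 20.7). Shares at equal depth were also alike, 7.69% of monocyte-like cells (4.99 to 11.2; 17.5% before thinning) and 7.23% of granulocyte-like cells (4.64 to 10.7; 6.72% before). Thinning left out 25 of the former cells and 158 of the latter, so the granulocyte-like share is that of the deeper cells. *Il17a* T cell-like cells lacked *Ly6i* in all 122 thinned cells. Under 4 other settings a granulocyte-like cluster had the highest *Ly6i* level: 115 CPM at resolution 0.8, in cells led by *Il1a* and *Il23a*, 57.1 CPM with 30 components, and 52.4 CPM at resolution 0.3 and with the family among the variable genes.

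*Ly6d* marked very few cells. The cluster without a type name that held *Igkc* and *Ccr7* had 123 CPM (109 to 139) and 261 of the 285 UMIs of the library. These came from 14 cells, 105 of them from a single cell, so the level is that of rare cells inside a mixed cluster. It depends on how tightly they are grouped: with 30 components a cluster named B lineage-like had 746 CPM of *Ly6d*, and at resolution 0.8 such a cluster had 157 CPM. The B cell gene *Cd79a* was found in 11 of the 20 graft cells with *Ly6d*, and those 11 held 236 of the UMIs. *Siglech*, a gene of plasmacytoid DCs, was found in 3 of the 20, which held 25 UMIs. Only 8 graft cells had *Siglech* at all. Whether any of these cells also had *Cd79a* was not counted. In *Mmp12* macrophage-like cells there were 16 UMIs in 2 cells, 15 of them in a cell that also held the keratinocyte gene *Krt5*. The thinned share was 8 of 133 cells of the *Igkc* and *Ccr7* cluster (6.02%; 9.59% before) and 0 of 141 fibroblast-like cells.

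*Ly6e* was found in every cluster of the order, and each step between neighbours went beyond counting error. *Il17a* T cell-like cells led with 1249.9 CPM (1169 to 1335), endothelial-like cells had 1061 CPM (979 to 1149) and monocyte-like cells 956 CPM (922 to 991). The low end was formed by granulocyte-like cells, at 206 CPM (180 to 234), and the granule gene cluster, at 136 CPM. How much of these low levels is background RNA was not measured, and *Igkc* had a UMI in 428 of 2144 graft cells. Macrophage-like cells marked by *Cd163* lay in the middle with 691 CPM (668 to 714) and, being numerous, supplied 25.5% of the UMIs. At equal depth *Ly6e* was found in 84.4% of *Il17a* T cell-like cells (76.8 to 90.4; 94.3% before thinning), in 22 of 25 endothelial-like cells (88%, 68.8 to 97.5), in 73.1% of monocyte-like cells and in 12.8% of the granule gene cluster.

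**Figure D1:**
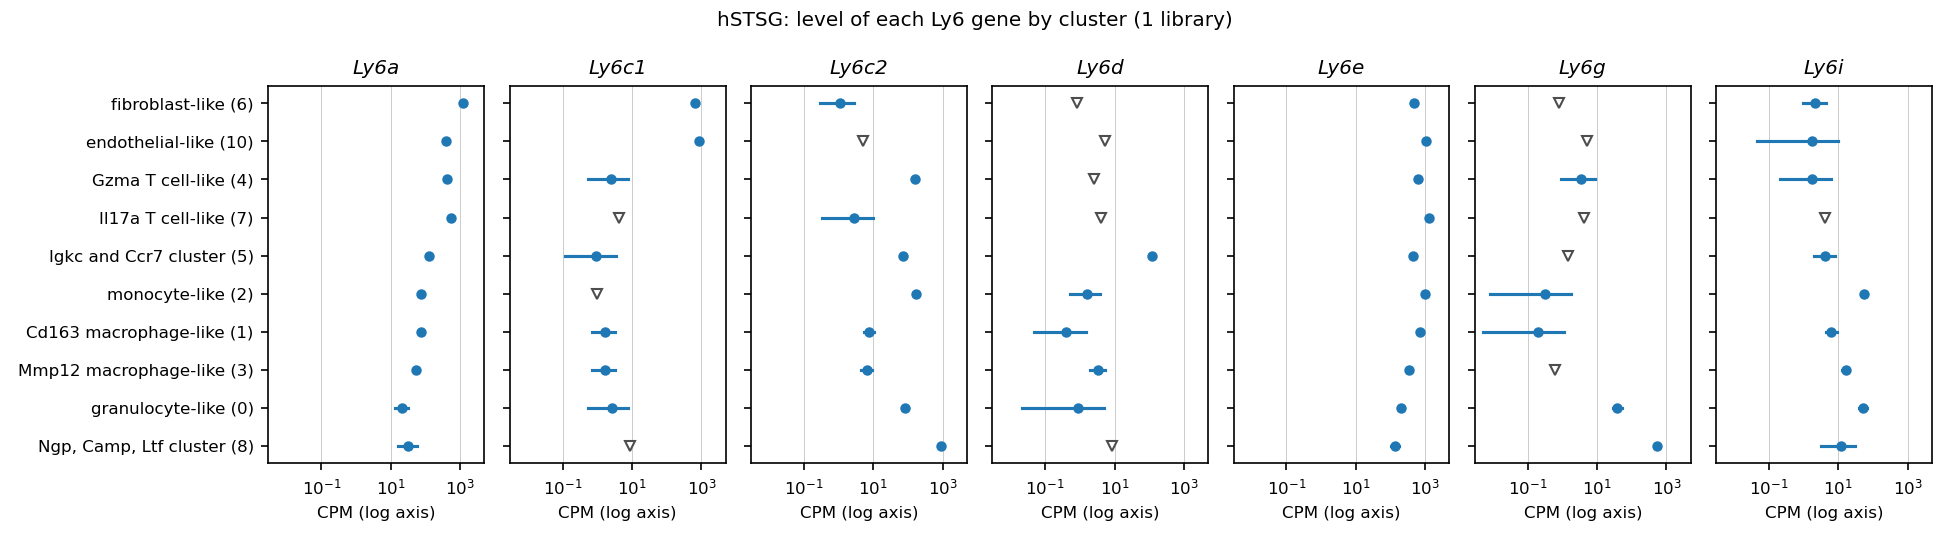
Level of each member in the clusters of the graft library, in CPM on a log axis, with 95% counting intervals; open triangles mark the limit of 3 counts where no UMI was seen. *Ly6a* reached 1195 CPM in fibroblast-like cells, *Ly6c1* 847 CPM in endothelial-like cells, and *Ly6c2* 914 CPM and *Ly6g* 543 CPM in the *Ngp*, *Camp* and *Ltf* cluster.

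Members that shared a cluster were next counted in the same cells, at equal depth. Of 141 fibroblast-like cells, 80 had *Ly6a* together with *Ly6c1*, where 63.4 would follow if the genes were independent. In endothelial-like cells this pair was found in 11 of 25 cells, with 8.4 if independent. *Ly6c2* and *Ly6g* met in 12 of 39 cells of the granule gene cluster, with 13.6 if independent. *Ly6a* and *Ly6i* were found together in 9 monocyte-like cells, with 2.31 if independent. Subtypes inside a cluster also raise such counts, and their part was not tested.

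Genes whose levels across 32 clusters, taken by library, ran most like each member were listed from 7384 genes. For *Ly6a* these were *Smad7* (Pearson r 0.900), *Smurf2* (0.896) and *Lysmd3* (0.887). *Ly6c1* was matched most closely by *Slco2a1* (0.995), *Pxdn* (0.994) and *Osmr* (0.992). For *Ly6c2* the list gave *G6pdx* (0.839), *Pilrb2* (0.765) and *Gsr* (0.765). The clusters share libraries and depth, so the coefficients describe these profiles and nothing more. The genes nearest to *Ly6d* were *Iglc1* (0.957), *Ms4a1* (0.948) and *Iglc3* (0.947). *Ly6e* ran with *Ier2* (0.874), *Eif4g3* (0.864) and *Shisa5* (0.852). *Ly6g* was nearest to *Rdh12* (0.843), *Ankrd22* (0.837) and *Amer2* (0.812). *Ly6i* was left with *AI839979* (0.872), *Lst1* (0.860) and *Gpr84* (0.837).

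All 7 members lie on chromosome 15 within 397071 bases that hold 25 annotated genes, 14 of them protein coding. In build GRCm38 (GENCODE vM21) the order is *Ly6d* (chr15:74762056-74763620, minus strand), *Ly6e* (chr15:74955051-74959905, plus), *Ly6i* (chr15:74979534-74983430, minus) and *Ly6a* (chr15:74994877-74998031, minus). Then come *Ly6c1* (chr15:75044018-75048830, minus), *Ly6c2* (chr15:75108158-75111970, minus) and *Ly6g* (chr15:75155240-75159126, plus). *Ly6d* stands apart from the rest by a gap of 191431 bases.

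**Figure D2:**
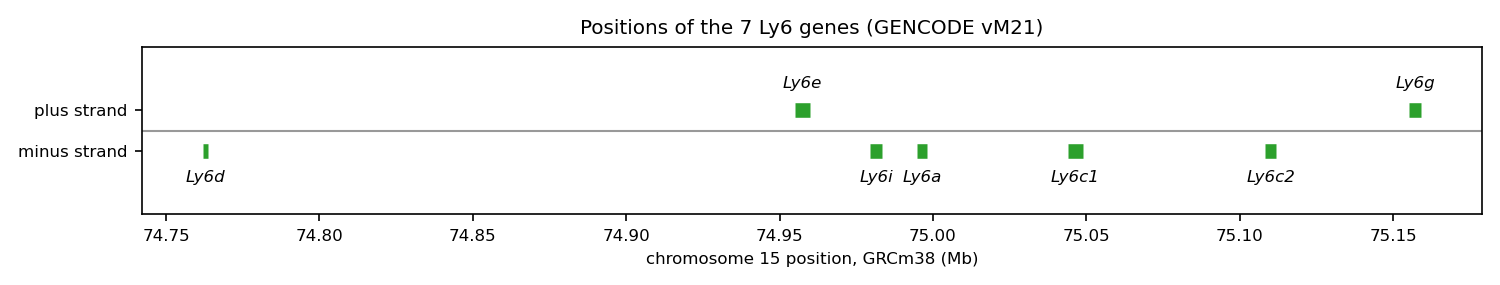
Positions of the 7 members on chromosome 15 in build GRCm38, in bases, with the strand of each gene. The members span 397071 bases, and *Ly6e* and *Ly6g* lie on the plus strand.

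Reads that fit more than 1 member are not counted for any, so likeness between copies limits what the counts can show. The last 500 bases of each transcript were cut into windows and searched among the transcripts of all genes. Of the 50-base windows of *Ly6c1*, 20.0% also occurred in *Ly6c2*. *Ly6c2* shared 20.6% of its own with any other gene, nearly all of them with *Ly6c1*. With 90-base windows the share was 8.52% for either gene. *Ly6a* and *Ly6i* each shared 4.43% of 50-base windows, mostly with the pseudogene *I830127L07Rik*, which is not among the genes counted, and no 90-base window. For *Ly6g* the share was 0.443%, and *Ly6d* and *Ly6e* shared none. The read length of these libraries is not given in the sources used here, so which window size applies was not settled.

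The counts themselves kept the closest pair apart in the graft. Fibroblast-like and endothelial-like cells, 170 in all, had 2882 *Ly6c1* UMIs and 4 *Ly6c2* UMIs, so *Ly6c2* was 0.139% of the pair. In the 377 cells of the granule gene and monocyte-like clusters there were 838 *Ly6c2* UMIs and no *Ly6c1* UMI, at most 0.358% by the limit of 3 counts. In the cultures *Ly6c1* made up 0.131% of the pair in Co-Mac, and 36 of its 37 cells also held *Ly6c2*. In VD-Mac it was 0.111%, in 9 cells, 8 of them with *Ly6c2*. Whether these few culture UMIs are *Ly6c1* transcripts or misassigned *Ly6c2* reads cannot be told apart. Reads lost because they fit both genes would not show in any of these counts.

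Coding sequences show how close this pair is. *Ly6c1* and *Ly6c2* differ at 9 of 396 coding bases (97.7% identical), while the next closest pair, *Ly6a* and *Ly6i*, is 86.4% identical. *Ly6d* and *Ly6e* were 49.3 to 53.5% identical to any other member. The first 180 coding bases of the pair, from transcripts Ly6c1-201 and Ly6c2-201 of build GRCm38, both on the minus strand of chromosome 15 and written in the sense of the transcript, are shown because 6 of the 9 differences fall there. Capitals mark the differing bases.

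Ly6c1: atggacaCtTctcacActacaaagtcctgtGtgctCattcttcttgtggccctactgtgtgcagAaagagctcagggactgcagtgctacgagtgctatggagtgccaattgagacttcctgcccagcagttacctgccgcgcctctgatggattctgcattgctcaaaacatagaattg
Ly6c2: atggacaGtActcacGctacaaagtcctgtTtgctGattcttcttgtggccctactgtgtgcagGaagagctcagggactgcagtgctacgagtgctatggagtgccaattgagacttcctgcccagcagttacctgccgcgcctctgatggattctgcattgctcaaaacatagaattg

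Upstream sequence could be matched for 3 of the 7 members. The 250 bases below are from build GRCm38.p6, at chr15:75048838-75049087 (minus strand) for *Ly6c1*, chr15:75111972-75112221 (minus) for *Ly6c2* and chr15:75155011-75155260 (plus) for *Ly6g*, each written toward the gene. They are shown because *Ly6c2* and *Ly6g*, the members of the granule gene cluster, each hold 1 copy of GAGGAAGT, a form of the site bound by the myeloid factor PU.1, and *Ly6c1* holds none in this stretch. Capitals mark that copy. The annotated *Ly6g* gene begins at chr15:75155240, so the last bases of its stretch lie inside the gene. The search itself used longer windows, at each listed start. In these windows *Ly6c2* had 2 copies at either start, and *Ly6g* had 1 at this start and 2 at another. A further listed start of *Ly6c1* has 1 copy upstream, and 3.20% of 32851 mouse promoters carry the word, so no weight was placed on it. Interferon response sites (GAS and ISRE-like) and a vitamin D response element were searched for in the same windows. They gave 0 matches in *Ly6c1*, *Ly6c2* and *Ly6g*. Of the mouse promoters, 8.30%, 3.44% and 0.040% carry these sites. Binding was not measured.

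Ly6c1: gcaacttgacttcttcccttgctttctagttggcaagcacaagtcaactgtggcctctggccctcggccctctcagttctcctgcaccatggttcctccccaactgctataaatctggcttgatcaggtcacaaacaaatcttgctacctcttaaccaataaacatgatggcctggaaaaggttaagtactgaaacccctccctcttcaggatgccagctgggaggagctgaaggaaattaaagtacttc
Ly6c2: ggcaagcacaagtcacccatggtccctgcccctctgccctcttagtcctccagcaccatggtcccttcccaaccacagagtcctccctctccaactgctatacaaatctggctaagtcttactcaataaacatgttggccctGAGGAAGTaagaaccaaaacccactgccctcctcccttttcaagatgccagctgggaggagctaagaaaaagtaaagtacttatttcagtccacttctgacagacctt
Ly6g: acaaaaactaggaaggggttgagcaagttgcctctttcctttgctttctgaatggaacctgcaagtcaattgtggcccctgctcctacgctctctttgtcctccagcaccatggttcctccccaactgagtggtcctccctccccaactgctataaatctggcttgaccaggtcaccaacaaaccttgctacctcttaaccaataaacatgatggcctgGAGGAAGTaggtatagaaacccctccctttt

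VD3 treatment was then compared with no treatment across all kept cells. A level of 10 CPM in either culture was needed for a call. Of the 3 members that reached it, *Ly6c2*, *Ly6e* and *Ly6i*, 1 passed a 2-fold change, downward. Among 7732 genes at that level, 4.63% fell and 2.16% rose by as much. Of the genes that passed, 31.8% were higher in VD-Mac as measured and 42.3% after the ratios were centred on their median. That median was a log2 ratio of −0.10, and changes are best read against it.

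*Ly6c2* was the member that fell. It went from 213 CPM (211 to 216) in Co-Mac to 69.6 CPM (68.1 to 71.2) in VD-Mac, a log2 ratio of −1.62 (−1.65 to −1.58), or −1.51 relative to the median gene. *Ly6e* stayed near the median gene, from 305 CPM (302 to 308) to 290.4 CPM (287 to 294), a log2 ratio of −0.07 (−0.09 to −0.05) that turned to 0.03 after centring. *Ly6i* was 13.4 CPM (12.8 to 14.1) untreated and 11.2 CPM (10.6 to 11.8) treated, a log2 ratio of −0.26 (−0.37 to −0.16), which turned to 0.30 with a mitochondrial limit of 5%. The remaining members were too low in the cultures to be called. *Ly6a* had 8.84 CPM (8.34 to 9.36) and 5.41 CPM (5.00 to 5.85), a log2 ratio of −0.71 (−0.85 to −0.57). *Ly6g* had 68 and 155 UMIs, 1.38 (0.96 to 1.81), and 0.65 with cell types given the same weights in each culture. Of its VD-Mac UMIs, 37 came from 2 cells of a basophil-like cluster. *Ly6d* had 461 and 44 UMIs, −3.20 (−3.68 to −2.75), found in 25 and 11 cells, and −1.27 with that limit. *Ly6c1*, with 37 and 9 UMIs, gave −1.85 (−3.09 to −0.78), and −0.60 with that limit.

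A lower level in a whole library can come from fewer cells of a type or from less transcript within that type. In Co-Mac, 64.2% of *Ly6c2* UMIs lay in a cycling monocyte-like cluster of 1488 cells, at 374 CPM (369 to 380). The same cluster held 4 VD-Mac cells, so the members could not be compared within it. Neutrophil precursor-like cells held 18.8% of *Ly6c2* UMIs in Co-Mac and 55.0% in VD-Mac. Markers of the VD-Mac cells in that cluster go against the name. *C1qa* was 544 CPM and *Trem2* 599 CPM in them, beside 567 and 790 CPM in macrophage-like VD-Mac cells. *S100a8* went the other way, with 8303 CPM against 1099.5 CPM. The 10 precursor markers summed to 8657 CPM in the Co-Mac cells of the cluster and 1227 in its VD-Mac cells. Granulocyte-like VD-Mac cells had 4724. Of 6 monocyte markers at the level needed, 4 fell and 1 rose, beside 4.63% and 2.16% of all genes, and the summed level of all 9 went from 1703 to 941 CPM, with *Chil3* the most abundant. When the cultures were clustered apart, the place of the *Ly6c2* UMIs shifted, with 55.5% of the Co-Mac total then in 658 precursor-like cells at 1052 CPM (1036 to 1069). In VD-Mac 2 clusters then took the precursor name: 1142 cells with 56.5% of the *Ly6c2* UMIs at 162 CPM, and 93 cells led by *Ltf* and *Ngp* at 613 CPM (557 to 673). With both clusters counted, the log2 ratio of *Ly6c2* in precursor-like cells was −2.60.

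Within precursor-like cells, 151 from Co-Mac and 1083 from VD-Mac, 2 of 3 members at the level needed passed 2-fold, where 23.3% of genes did. *Ly6c2* fell from 1394 to 164 CPM, a log2 ratio of −3.09 (−3.15 to −3.03). At resolution 0.8, where 543 and 235 cells took the name, the ratio was −0.998 and *Ly6c2* would not be called. *Ly6d* fell from 20.9 to 0.660 CPM, −4.99 (−5.81 to −4.24), on 80 UMIs in 3 cells and 18 UMIs in 2 cells. It reached the level needed in Co-Mac alone, so this call could only have been downward. The cluster also differed in its other genes. *Elane* went from 972 to 46.3 CPM and *Ngp* from 1525 to 245 CPM in the same cluster, while the macrophage markers together went from 908 to 9395 CPM. How much of the *Ly6c2* difference is a different mix of cells under 1 name was not tested. *Ly6e* was 442 CPM untreated and 577 treated, 0.38 (0.31 to 0.46). For *Ly6i* the values were 5.23 and 9.87 CPM, 0.92 (0.26 to 1.65), and for *Ly6g* 28 and 36 UMIs, −2.47 (−3.22 to −1.70). The direction of these 3 members turned when cells were regrouped at resolution 0.8, with a ratio of −0.21 for *Ly6e*, −0.48 for *Ly6i* and 1.47 for *Ly6g*. At equal depth *Ly6c2* was found in 88.0% of Co-Mac precursor-like cells (81.7 to 92.7) and in 23.5% of those of VD-Mac (21.0 to 26.2), against 96.7% and 60.2% before thinning. The median depths were 23621 and 22529 UMIs.

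Granulocyte-like cells, 928 and 1119, gave 1 call among 5 members at the level needed, where 4.02% of genes were called. *Ly6g* rose from 6.40 to 17.3 CPM, a log2 ratio of 1.43 (0.81 to 2.09), on 30 and 77 UMIs. It reached the level needed in VD-Mac alone, so the call could only have been upward. The 10 precursor markers together went from 2690 to 4724 CPM in this cluster, led by *Lcn2*, though *Camp* was 168 and 174 CPM and *Fcnb* 15.6 and 12.8 CPM, and a different mix of cells within the cluster cannot be told apart from a change within cells. *Ly6c2* was 293 CPM untreated and 184 treated, −0.67 (−0.80 to −0.55), but −1.80 when the family was kept among the variable genes. *Ly6i* was 164 and 132 CPM, −0.31 (−0.46 to −0.15), and this cluster held 43.0% of its UMIs in Co-Mac and 45.2% in VD-Mac. *Ly6e* was 509 CPM in either culture, 0.00 (−0.08 to 0.08), but 0.52 when the cultures were clustered apart. *Ly6a* gave 29.0 and 20.9 CPM, −0.48 (−0.87 to −0.08), and −1.71 at resolution 0.8. Thinned shares followed the levels of *Ly6c2*, with 21.2% (18.2 to 24.6; 269 cells left out; 25.9% before thinning) and 13.4% (11.2 to 15.9; 299 left out; 18.3% before). For *Ly6g* they were 0.759% (0.247 to 1.76) and 1.71% (0.936 to 2.85), intervals that overlap. Median depths were 2935.5 and 2865 UMIs.

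Clustered apart, the granulocyte side of the cultures looked different. *Ly6c2* was then 32.3 CPM (23.0 to 44.1) in 540 Co-Mac granulocyte-like cells and 56.9 CPM (48.9 to 65.9) in 955 from VD-Mac, the reverse of the order above. The highest *Ly6g* level was found in the 93 VD-Mac cells led by *Ltf* and *Ngp*, named precursor-like, with 91.9 CPM on 66 UMIs. The sign for *Ly6c2* thus depends on which cells are grouped as granulocyte-like.

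The clusters named macrophage-like held nearly all their cells from 1 culture each, so treatment and cluster cannot be told apart. The name rests on the whole marker list, since neither cluster has a macrophage marker among its 10 leading genes and the Co-Mac cluster has the monocyte marker *Fn1*. Of 3 members at the level needed 0 were called, where 11.1% of genes were. *Ly6c2* was nearly the same in both, 116 and 117 CPM, a log2 ratio of 0.01 (−0.07 to 0.10). Its direction depended on the grouping, with −0.21 at resolution 0.3 and −0.26 at 0.8. The ratio was 0.39 with 30 components and −0.56 with the cultures clustered apart. *Ly6e* was 352 CPM untreated and 589 treated, 0.74 (0.70 to 0.79), and its thinned share 46.5% (43.4 to 49.5) and 68.3% (65.5 to 71.0). *Ly6i* was 11.0 and 17.7 CPM, 0.68 (0.44 to 0.92). *Ly6a* was 8.65 and 9.05 CPM, 0.06 (−0.24 to 0.37), but −0.62 with the cultures clustered apart.

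DC-like cells had very little of the family. No member reached the level needed in their main clusters, where 4.8% of genes were called. Here too the cultures fell apart, with 2972 VD-Mac and 10 Co-Mac cells in 1 cluster and 13 and 2628 in the other, so treatment and cluster cannot be told apart. *Ly6e* had 6.76 and 4.98 CPM, −0.44 (−0.70 to −0.18), and *Ly6c2* 2.09 and 0.559 CPM, −1.90 (−2.62 to −1.24). *Ly6i* was 0.584 and 0.210 CPM, −1.48 (−2.77 to −0.32). The thinned *Ly6c2* share of the Co-Mac cluster was 0.381%, against which the *Ly6c2* shares of other Co-Mac cells can be read. cDC1-like cells, 77 and 118, had more *Ly6e* than the main DC-like clusters, 414 CPM untreated and 613 treated, 0.57 (0.40 to 0.73). Of their 2 members at the level needed, *Ly6a* and *Ly6e*, none was called, where 16.9% of genes were.

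*Ly6d* in the cultures mainly followed rare B lineage cells. In Co-Mac, 20 of the 25 cells with *Ly6d* also had *Cd79a* and held 426 of its 461 UMIs. In VD-Mac all 11 cells with *Ly6d*, and all 44 UMIs, were *Cd79a* cells. *Siglech* was found in 2 of the 25 Co-Mac cells with *Ly6d*, which held 32 UMIs, and in none from VD-Mac. Within *Cd79a* cells, 38 and 19 in number, the level was 546 CPM (495 to 600) untreated and 194 CPM (141 to 261) treated, a log2 ratio of −1.49 (−1.97 to −1.04). Of the cells with *Ly6d*, 15 and 9 sat in a small basophil-like cluster that also carried B lineage genes, where *Cd79a* was 350 and 158 CPM but *Igkc* 541 and 5741 CPM. Whether the B lineage cells of the 2 cultures were at the same stage was not tested. None of the cells with *Ly6d* had the basophil gene *Mcpt8* in any library. In the same cluster 37 *Ly6g* UMIs came from 2 VD-Mac cells, both with *Mcpt8*, 31 UMIs from a single cell, and none from Co-Mac. Of 5 members at the level needed in this cluster 3 were called, where 16.6% of genes were: *Ly6d* fell from 488 to 36.0 CPM, *Ly6g* rose on those 2 cells, which could only have been upward as Co-Mac had 0 UMIs, and *Ly6a* fell from 64.8 to 30.5 CPM, −1.09 (−1.91 to −0.30), on 40 and 22 UMIs. *Ly6e* was 694 and 380 CPM there, −0.87 (−1.09 to −0.65).

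**Figure D3:**
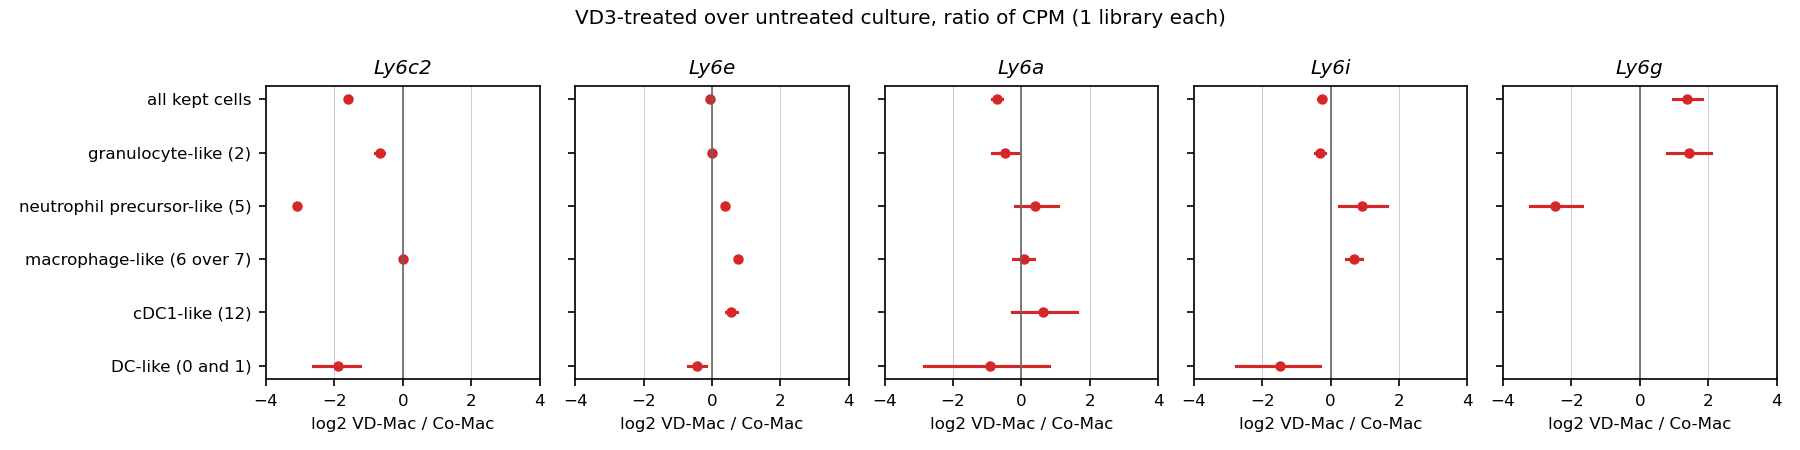
Log2 ratio of VD-Mac over Co-Mac for 5 members in all kept cells and within each cell type, with 95% counting intervals. *Ly6c2* gave −1.62 in all cells and −3.09 in precursor-like cells, or −0.998 there at resolution 0.8. The VD-Mac cells named precursor-like also carried macrophage markers. *Ly6g* gave 1.43 in granulocyte-like cells, where only an upward call was possible. *Ly6e* gave −0.07 in all cells, or 0.03 after centring.

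Relatives of the family and genes that serve it were read in the same way. Of 42 other Ly6/uPAR family genes 34 were found, and 18 of these had no UMI in either culture. *Plaur*, the urokinase receptor gene, was the single one at the level needed, where 4.63% of all genes fell, and it went down from 122 CPM (120.1 to 123.9) to 33.5 CPM (32.5 to 34.6), a log2 ratio of −1.86 (−1.92 to −1.81). In the graft *Plaur* stood at 393 CPM, and at 1455 CPM in granulocyte-like cells. *Gpihbp1*, which carries lipoprotein lipase across endothelium, had 646 CPM in endothelial-like cells of the graft and no UMI in the cultures. Genes that make and attach the GPI anchor gave no call: of 27, 26 were found and 15 reached the level needed, 0 were called, where 4.63% of all genes fell and 2.16% rose, and their median log2 ratio was −0.02, beside −0.10 for all genes. Their summed level was 556 and 563 CPM, with *Pgap2* the most abundant (95.1 and 71.0 CPM). All 24 interferon response genes were found, 9 reached the level needed and 2 rose, beside 2.16% of all genes, with a median of 0.06 against −0.10. *Gbp2* rose from 64.0 to 207 CPM, 1.70 (1.66 to 1.73), and *Usp18* from 8.25 to 18.3 CPM, 1.15 (1.04 to 1.26), where only an upward call was possible. *Mx1* went the other way without a call, 49.3 and 26.4 CPM, −0.90. *Bst2*, the most abundant of them in Co-Mac, was 195 and 191 CPM. Whether interferon acted on any member in these cultures was not tested.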

How the data were processed

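The counts are the UMI matrices deposited by the authors, made with Cell Ranger 3.1.0, and no read was aligned again. The sample records name build mm9 and the paper names human GRCh38 v3.0.0, while the gene identifiers are mouse and 30934 of 31053 match GENCODE vM21 (GRCm38), so the true build is unsettled. Kept barcodes had 300 genes or more, a gene UMI total below 100000 and a mitochondrial share under 10%. Clustering used Seurat 5.3.0 in R 4.3.3 (Matrix 1.6.5): log normalisation to 10000, 2000 variable genes without Ly6/uPAR family genes, 15 components, 15 neighbours and resolution 0.5, with hSTSG alone and the cultures together. Each cluster was named by the markers whose log2 ratios to the remaining clusters, after 5 CPM had been added, averaged highest. A name needed 3 markers and an average of 0.5. Some clusters past these limits were left without a name. The granule gene cluster was 1 of them, with 4.48 for granulocyte and 4.06 for neutrophil precursor markers. The rule for mixed clusters was settled after the clusters were seen. Named genes were matched by symbol in the gene table. Counts were summed per cluster and library in Python 3.11.15 with numpy 2.4.6, scipy 1.17.1 and pandas 2.3.3, and drawn with matplotlib 3.10.9. Intervals were exact Poisson for levels, exact conditional binomial for ratios and Clopper-Pearson for shares. Calls required a 2-fold change and 10 CPM in either culture, and no tests were made because each group is 1 library. Doublet scores came from Scrublet in scanpy 1.11.5. Its automatic threshold called 1 and 0 culture cells and so did not work, and no cell was removed except in an alternative without the 421 and 623 top-scoring cells. The other alternatives were 300 UMIs in place of 300 genes, a mitochondrial limit of 5%, no filter, mean over cells, centred ratios, cell types given the same weights in each culture, *Ly6c1* and *Ly6c2* summed, *Ly6a*, *Ly6c1*, *Ly6c2* and *Ly6i* summed, thinning to 1000 or 4000 UMIs or not at all, resolutions 0.3 and 0.8, 30 components, clustering with the family kept, and clustering each culture apart. Members and lists were chosen with earlier results of these data known. The scripts were checked on simulated data.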

Additional observations from a re-analysis of the deposited data

Results flagged for a closer look

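Some values differed between cell types or stood apart from the rest, and none of these differences was tested. The log2 ratio of VD-Mac over Co-Mac for *Ly6e* was 0.74 in macrophage-like cells, taken from a separate cluster in each culture, and −0.44 in DC-like cells. For *Ly6g* it was 1.43 in granulocyte-like cells and −2.47 in neutrophil precursor-like cells, where it turned to 1.47 at resolution 0.8 and 0.59 with the cultures clustered apart. For *Ly6i* it was 0.92 in neutrophil precursor-like cells and −1.48 in DC-like cells, the latter on levels below 1 CPM, and in the precursor-like cells it turned to −2.07 at resolution 0.3, −0.48 at 0.8 and −0.54 with the cultures clustered apart. The hSTSG library also holds 1195935 UMIs of antibody tags, which were not analysed.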

How the results depend on the processing

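The VD-Mac over Co-Mac log2 ratios of all kept cells were taken again under other settings, and the cause of any shift was not tested. A value is said to stay here if it lies within the 95% counting interval of the main value, which is wide where UMIs are few. A mitochondrial limit of 5% kept only 3125 of the 7257 Co-Mac cells and 3619 of the 8825 VD-Mac cells. With that limit the ratios were −0.50 for *Ly6a*, −0.60 for *Ly6c1*, −1.97 for *Ly6c2*, −1.27 for *Ly6d* and −0.38 for *Ly6e*, and *Ly6i* turned to 0.30. Without a filter *Ly6e* was −0.033. As a mean over cells *Ly6c2* was −1.43, *Ly6d* −2.72 and *Ly6i* −0.46, and *Ly6e* turned to 0.11. Centred on the median gene, *Ly6c2* was −1.51 and *Ly6e* turned to 0.030. With cell types given the same weights in each culture *Ly6a* was −0.47, *Ly6c2* −1.82, *Ly6g* 0.65 and *Ly6i* −0.46, and *Ly6e* turned to 0.18. The sum of *Ly6a*, *Ly6c1*, *Ly6c2* and *Ly6i* gave −1.45. The other 32 of these ratios stayed within that interval, among them *Ly6c1* at −2.28 with those weights and *Ly6g* at 1.07 without the top doublet scores. The number of members called was 1 under the 7 settings that keep the members apart.

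Within cell types, 20 of 92 ratios changed sign, and 7 of them started from an interval that excluded 0. Of these 7, with the cultures clustered apart, *Ly6c2* in granulocyte-like cells was 0.82, and in precursor-like cells *Ly6i* was −0.54 and *Ly6g* 0.59. At resolution 0.8, precursor-like cells gave −0.21 for *Ly6e*, −0.48 for *Ly6i* and 1.47 for *Ly6g*. At resolution 0.3, *Ly6i* was −2.07 there. The other 13 started from intervals that included 0. Among them, *Ly6a* in precursor-like cells went from 0.41 to −2.21 at resolution 0.3, −0.48 at 0.8 and −1.57 with the family kept among the variable genes. In macrophage-like cells *Ly6c2* and *Ly6a* each changed sign under 4 settings, down to −0.56 and −0.62 with the cultures clustered apart, and *Ly6e* in granulocyte-like cells did so close to 0. Changes past 2-fold appeared or were lost in some settings: *Ly6c2* in precursor-like cells was −0.998 at resolution 0.8, and in granulocyte-like cells −1.80 with the family kept. *Ly6a* in granulocyte-like cells was −1.71 at resolution 0.8 and −1.25 with the cultures clustered apart. In all, 37 within-type ratios moved in addition to the 7, and 48 stayed within the interval, among them *Ly6i* in precursor-like cells at 0.38 with the family kept. *Ly6e* in granulocyte-like cells moved to 0.52 with the cultures clustered apart, and in DC-like cells to −0.041. Of 56 graft levels and shares, 19 moved and 37 stayed.

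No paired analysis was possible because each group is 1 library and the labels pair no cultures. Treatment and preparation of a culture cannot be told apart. Cluster names rest on marker genes. Several comparisons rest on few UMIs or few cells, among them *Ly6d* and *Ly6g* in the cultures. The precursor-like and granulocyte-like comparisons depend on how cells are grouped. Reads that fit *Ly6c1* and *Ly6c2* alike are missing from the counts of either gene.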
